A study of Mus musculus with 16 samples.

Results

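The collagen genes encode the triple-helical proteins of the extracellular matrix. They were taken as every gene whose symbol reads Col, a type number, the letter a and a chain number with nothing after it, which found 44 of the 55487 genes measured. They make up 27 collagen types on 15 chromosomes. Of the 44 genes, 11 encode fibrillar chains (types I, II, III, V, XI, XXIV and XXVII), 8 encode chains of basement membranes (types IV, XV and XVIII) and 25 encode other types. RNA sequencing was carried out on skeletal muscle of 4 groups of mice with 4 libraries each: CHCHD4 Tg mice given treadmill training (Tg trained), wild-type mice given the same training (WT trained), CHCHD4 Tg mice with no training (Tg untrained) and wild-type mice with no training (WT untrained). The design set out to describe the molecular changes that go with CHCHD4, a mitochondrial intermembrane space protein that oxidises imported proteins, and with training. The labels do not give the promoter that drives the transgene, the muscle sampled, the strain or age, or the length of training. Whether each library is 1 animal is not stated either, and every p-value below therefore describes variation from library to library, some of which may be technical.

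Fibrillar collagens assemble into the cable-like fibrils of the endomysium, perimysium and epimysium around muscle fibres and carry force to the tendon, and type I and type III are the main types of muscle connective tissue. Type IV collagen forms the sheet-like network of the basement membrane that wraps each fibre and capillary, and type VI forms beaded filaments that link this sheet to the matrix around it. In muscle most collagen transcripts are made by fibroblasts of the interstitium rather than by the fibre, and the proteins turn over slowly, so a transcript level is not a measure of the collagen present.

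Library totals were 40888272 to 61703679 rounded counts, and levels are given as scaled counts (CPM, counts per 1000000 after adjustment for library make-up). Chchd4 measured 18.1 to 22.2 CPM in the 8 Tg libraries and 6.88 to 8.98 CPM in the 8 WT libraries, so the genotypes did not overlap. The summed level of 8 skeletal muscle fibre markers was 124555 CPM in WT untrained replicate 2 and 162428 to 191394 CPM in the other 15 libraries. That library also had the highest scaling factor, 1.285, against 0.924 as the lowest, and 11.2 CPM of Myh7, the slow-twitch myosin. Myh7 was also above 10 CPM in WT trained replicate 3 and in Tg untrained replicates 2 and 3. Skin keratin and desmosome markers summed to 0.372 to 1.90 CPM. The transcripts come from whole muscle, where fewer cells of a type and less RNA per cell cannot be told apart.

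Several collagen genes lie side by side, and start regions are shown for the pair that shares its start and for the 2 most abundant genes. Col4a1 and Col4a2, the chains of the common type IV collagen, sit head to head on mouse chromosome 8 with their 5′ ends overlapping by 22 bases, at 11198423 to 11312826 and 11312805 to 11449287 of GRCm38. No source used here gives the strand of the reads, so reads in those 22 bases cannot be assigned to 1 gene. Col1a2 encodes the second chain of type I collagen and Col3a1 the single chain of type III. Each line gives 250 bases before and 50 bases after the start in RefSeq for GRCm38.p6, written 5′ to 3′ on the gene's strand.
Col4a1 promoter, chr8:11312777-11313076, minus strand: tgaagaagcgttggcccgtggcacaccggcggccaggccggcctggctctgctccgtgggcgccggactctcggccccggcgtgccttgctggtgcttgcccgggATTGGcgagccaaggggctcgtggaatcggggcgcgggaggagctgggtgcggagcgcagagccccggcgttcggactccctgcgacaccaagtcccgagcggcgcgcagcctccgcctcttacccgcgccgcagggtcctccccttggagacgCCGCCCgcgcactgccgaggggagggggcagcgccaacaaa
Col4a2 promoter, chr8:11312555-11312854, plus strand: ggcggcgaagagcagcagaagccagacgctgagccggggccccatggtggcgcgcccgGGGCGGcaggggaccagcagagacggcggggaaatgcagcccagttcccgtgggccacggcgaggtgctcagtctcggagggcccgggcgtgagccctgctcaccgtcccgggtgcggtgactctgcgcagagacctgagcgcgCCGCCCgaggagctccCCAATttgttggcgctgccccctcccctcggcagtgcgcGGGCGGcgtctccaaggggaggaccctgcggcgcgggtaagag
Col1a2 promoter, chr6:4505368-4505667, plus strand: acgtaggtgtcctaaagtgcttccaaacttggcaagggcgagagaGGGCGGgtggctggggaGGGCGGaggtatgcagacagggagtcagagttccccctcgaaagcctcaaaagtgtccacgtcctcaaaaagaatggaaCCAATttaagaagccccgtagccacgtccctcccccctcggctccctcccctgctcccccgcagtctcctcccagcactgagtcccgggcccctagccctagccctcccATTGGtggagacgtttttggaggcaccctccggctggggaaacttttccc
Col3a1 promoter, chr1:45311288-45311587, plus strand: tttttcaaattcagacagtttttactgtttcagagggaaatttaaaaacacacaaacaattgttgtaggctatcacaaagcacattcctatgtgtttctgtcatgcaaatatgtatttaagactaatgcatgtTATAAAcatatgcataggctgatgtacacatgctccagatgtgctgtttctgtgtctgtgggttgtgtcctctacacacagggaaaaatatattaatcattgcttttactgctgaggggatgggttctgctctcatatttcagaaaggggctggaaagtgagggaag
Capitals mark the CCAAT box letters CCAAT, the GC box letters GGGCGG and the TATA box letters TATAAA in either orientation, and no marked stretch overlaps another in these windows. The Col4a1 and Col4a2 windows share 78 bases, which read the same on opposite strands. The Col4a1, Col4a2 and Col1a2 windows held 74.0%, 73.7% and 61.0% G and C, against 37.7% in the Col3a1 window. Of 32851 mouse promoters of this length, the CCAAT letters occurred in 37.4% on either strand, the GC box letters in 35.7% and the TATA box letters in 13.6%. The promoter table matched 35 of the 44 collagen genes with 38 promoters, of which 13, 23 and 5 held these motifs in that order. A match of letters does not show that a factor binds. Col4a3 and Col4a4 also lie head to head, 71 bases apart on chromosome 1, and Col4a5 and Col4a6 lie head to head 1308 bases apart on the X chromosome.

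A few collagens supplied most of the collagen transcripts. Levels of different genes were compared as CPM per kilobase of exon, averaged over the 16 libraries. Col3a1 stood at 34.9 CPM per kilobase, Col1a2 at 33.7 and Col1a1, the first chain of type I collagen, at 22.2, and these 3 genes held 51.0% of the collagen total. The type IV chains Col4a1 and Col4a2 followed at 16 and 11 CPM per kilobase, and the type VI chains Col6a1, Col6a2 and Col6a3 at 9.97, 9.04 and 8.16. With Col5a1, a chain of the type V collagen that sits in type I fibrils, at 4.68, the 9 most abundant genes held 84.1%. Neighbours in this order overlapped over the libraries: Col3a1 spanned 24.8 to 57.6 CPM per kilobase and Col1a2 19.5 to 53. Of the 44 genes, 32 averaged at least 1 CPM, 14 at least 10 CPM, and 12 less than 1 CPM. The 12 include Col2a1 and Col10a1, the collagens of cartilage. Col6a4 and Col9a3, at 0 to 0.14 and 0.0197 to 0.143 CPM, did not pass the filter on low counts, which left 42 of the 44 among 17490 genes tested.

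**Figure D1:**
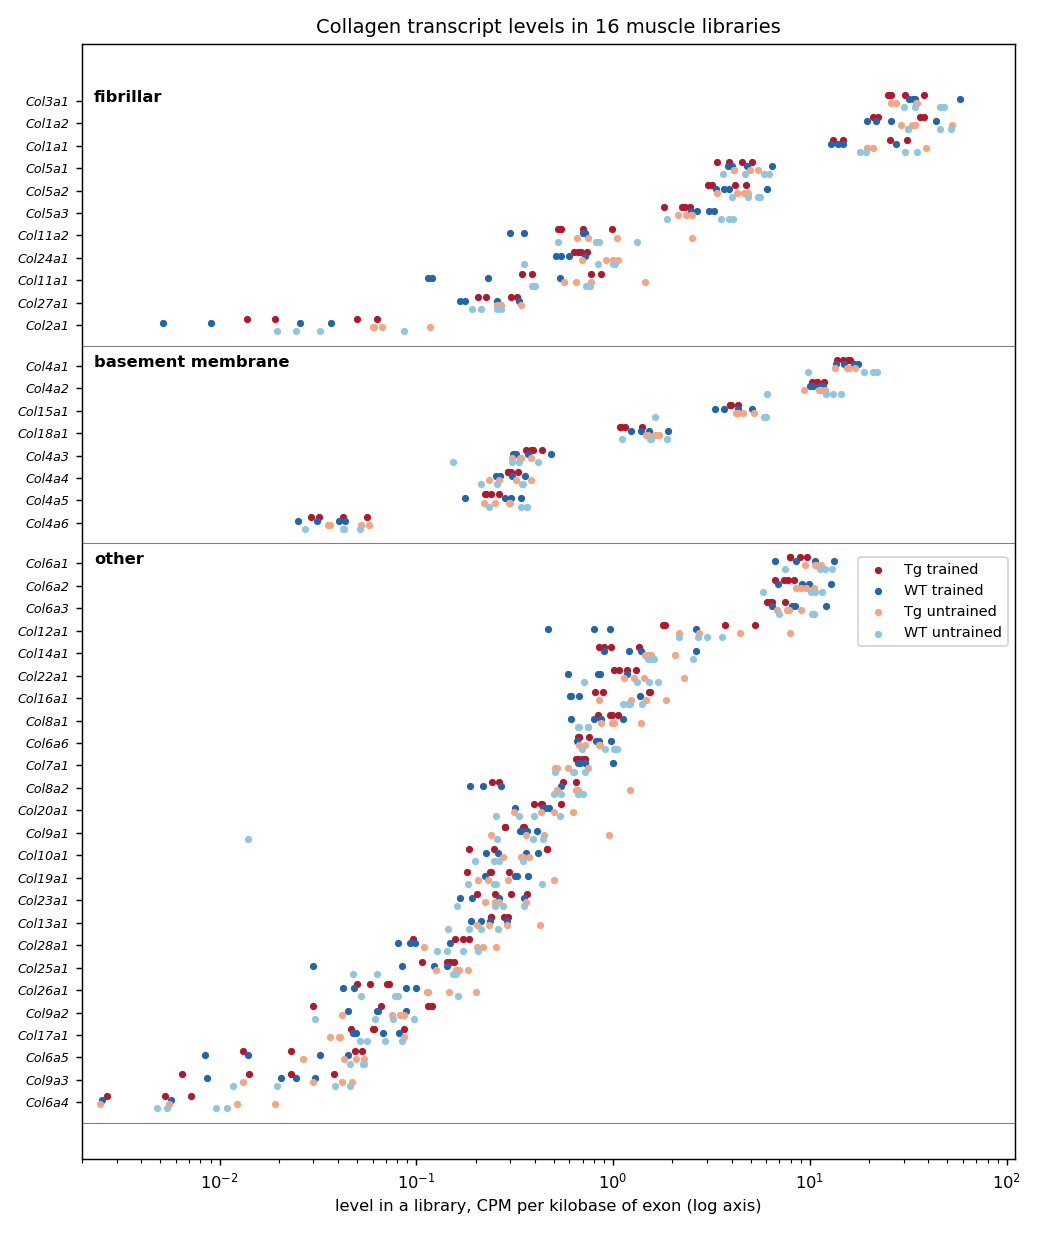
Level of each of the 44 collagen genes in every library, in CPM per kilobase of exon on a log axis, with 1 point per library coloured by group and genes ordered by mean level within their class. Values of 0 are not drawn. Col3a1, Col1a2 and Col1a1 lie at the right, and the colours overlap for most genes.

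By class, fibrillar chains made up 53.4% to 64.5% of the collagen CPM per kilobase of a library, basement membrane chains 13.2% to 23.6% and the other types 19.8% to 24%. All collagen genes together took 0.077% to 0.144% of the scaled counts of a library. The fibrillar sum was 116, 68.8, 112 and 73.9 CPM per kilobase in the Tg trained, 88, 75.2, 80.4 and 147 in the WT trained, 105, 93.5, 145 and 86.6 in the Tg untrained, and 143, 90.9, 101 and 152 in the WT untrained libraries. The basement membrane sum was 32.5, 30.03, 34.6 and 31.5 CPM per kilobase in the Tg trained, 35.6, 29.4, 31 and 36.5 in the WT trained, 35.1, 35.1, 29.7 and 34 in the Tg untrained, and 39.4, 19.3, 44.4 and 43.2 in the WT untrained libraries. The 4 groups overlapped in both sums, and the lowest basement membrane value was that of WT untrained replicate 2. For the other types the sum spanned 30.03 to 39.9 CPM per kilobase in Tg trained, 28.4 to 51.6 in WT trained, 36.9 to 50.2 in Tg untrained and 32.1 to 48.1 in WT untrained libraries.

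**Figure D2:**
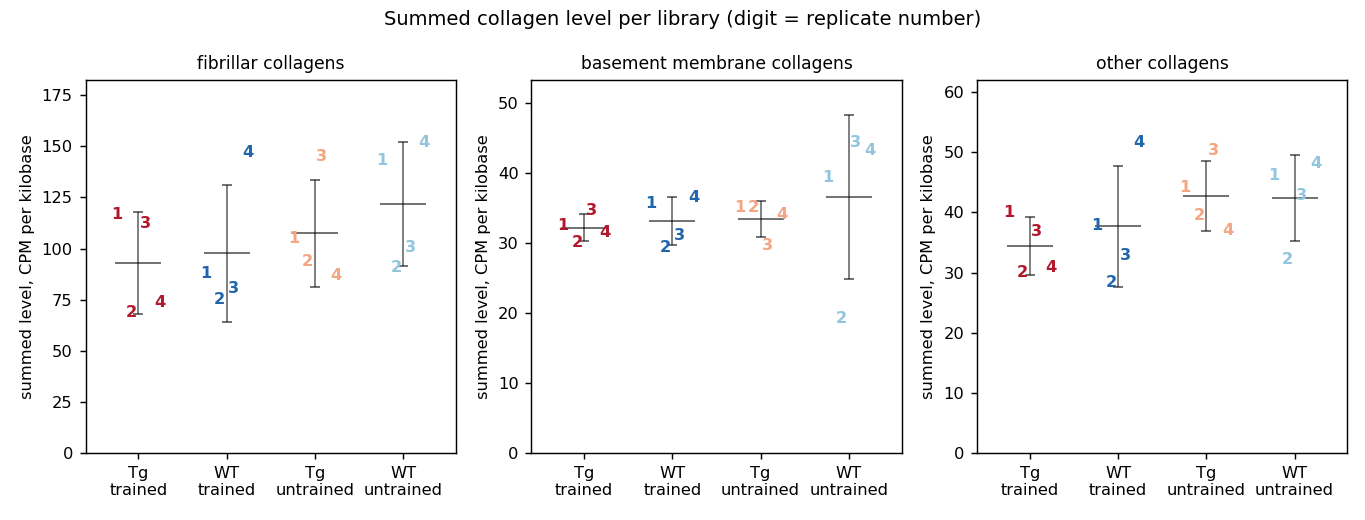
Summed level of fibrillar, basement membrane and other collagens in each library, in CPM per kilobase, for the 4 groups. Each digit is the replicate number of a library, and the bars are mean and SD of 4 libraries. WT trained replicate 4 stands above its group in the fibrillar panel and WT untrained replicate 2 below its group in the basement membrane panel.

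Collagen transcripts varied more between libraries of a group than most genes. On log2 of CPM plus 0.5, the within-group SD had a median of 0.316 over the 11 fibrillar genes, 0.256 over the 8 basement membrane genes and 0.279 over the 23 other genes tested, against 0.152 over all 17490 genes and 0.109 over the 5349 genes of at least 10 CPM. On this scale the widest spread among the collagens was that of Col12a1, a fibril-associated collagen of fascia, tendon and muscle, with an SD of 0.764, larger than in 99.7% of tested genes. Col11a1 (0.625), Col11a2 (0.581), Col9a1 (0.567) and Col1a1 (0.520) came next. The added 0.5 narrows the spread of genes at low CPM. Without it, the highest over the lowest of the 16 libraries was 68.8 for Col9a1 and 22.9 for Col2a1, against 17.2 for Col12a1. The deviations ran together within a library. WT trained replicate 4 was the highest library of its group for 29 of the 42 genes tested, including all 11 fibrillar genes. Tg untrained replicate 3 was the highest of its group for 25, including 9 of the 11 fibrillar genes. WT untrained replicate 2 was the lowest of its group for 28, including 6 of the 8 basement membrane genes. In Tg trained libraries, replicate 3 was the highest for 21 genes, among them 7 of the 8 basement membrane genes, and replicate 2 the lowest for 23.

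Markers of other cell types differed between the same libraries. The summed level of 11 tendon and cartilage markers was 68, 50.9, 69 and 52 CPM in the Tg trained, 46.9, 20.6, 32.3 and 73.4 in the WT trained, 68.9, 91.8, 113 and 78.2 in the Tg untrained, and 76, 75.6, 72.8 and 94.5 in the WT untrained libraries. The WT trained libraries run from the lowest value of all to one near the untrained groups, and replicate 4 is the highest among them. The 8 Schwann cell markers summed to 32.5, 29.5, 63.5 and 30.5 CPM in the Tg trained, 33.7, 28.8, 29.5 and 51.2 in the WT trained, 33.9, 52.9, 81.6 and 40.8 in the Tg untrained, and 32.4, 27.3, 31.2 and 45.3 in the WT untrained libraries. Tg untrained replicate 3 was the highest of the 16 and Tg trained replicate 3 the next. For the 10 fibroblast markers the sum was 392, 315, 368 and 337 CPM in the Tg trained, 488, 309, 323 and 546 in the WT trained, 493, 544, 553 and 399.8 in the Tg untrained, and 555, 600.5, 515 and 532 in the WT untrained libraries. The 8 macrophage markers summed to 26.4, 19.6, 20 and 19.7 CPM in the Tg trained, 38.2, 18.7, 35.4 and 62.5 in the WT trained, 31.6, 42, 37.3 and 22.2 in the Tg untrained, and 42, 56.7, 33.6 and 34.6 in the WT untrained libraries. WT trained replicate 4 was the highest of the 16 and WT untrained replicate 2 the next. Most of the fibroblast sum came from 1 gene in every library, Gsn, at 200.4 to 440 CPM. Most of the tendon and cartilage sum likewise came from Thbs4, at 15.9 to 72.9 CPM. These 2 sums therefore largely follow 1 gene each. All 10 fibroblast, all 8 Schwann cell, all 8 macrophage and 10 of the 11 tendon markers were among the tested genes. The part of these cells in the collagen values was not tested.

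**Figure D3:**
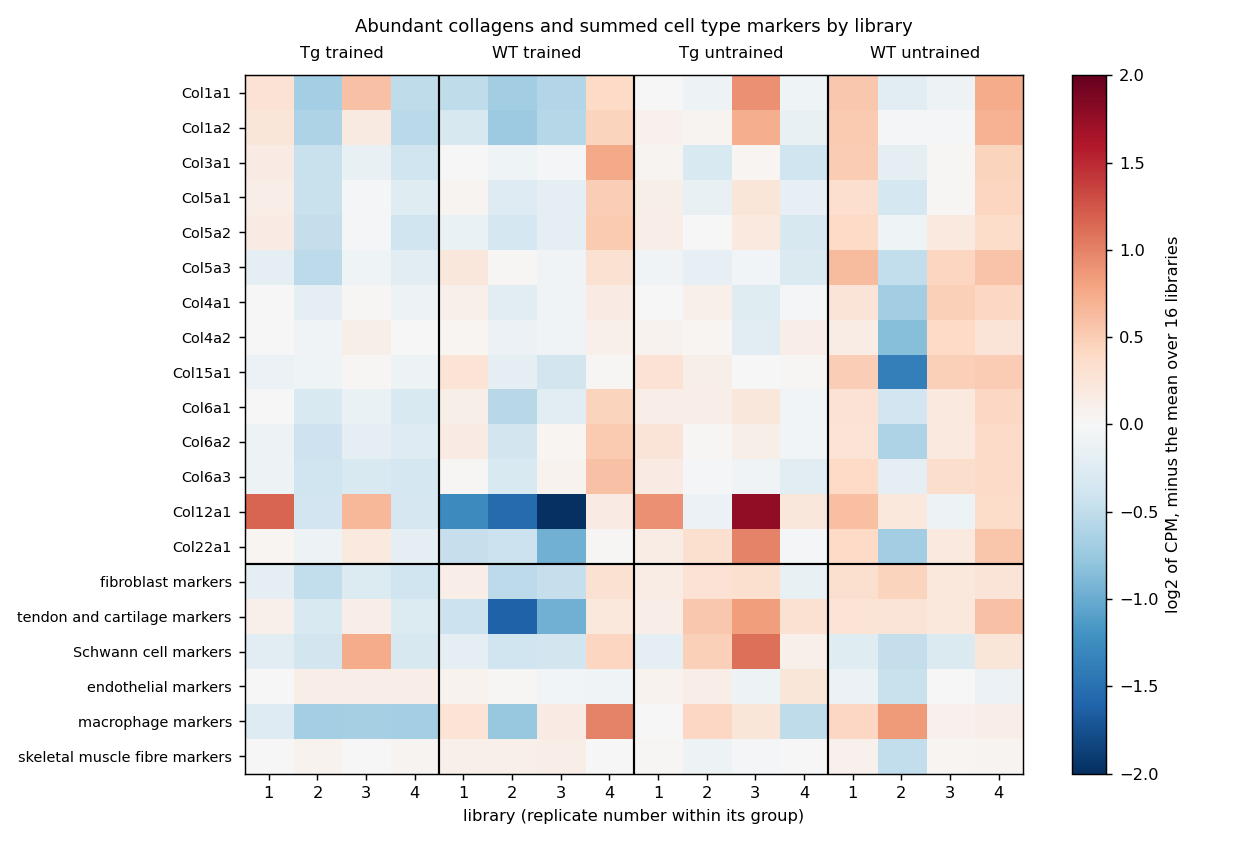
Log2 of CPM minus its mean over the 16 libraries, for the 14 collagen genes of at least 10 CPM (above the line) and for summed cell type markers (below it), with columns for libraries by group and replicate. Red is above and blue below the mean, and the scale ends at -2 and 2. Col12a1 shows the strongest contrasts, and the basement membrane rows are blue in WT untrained replicate 2.

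No collagen gene passed the test for training in either genotype. In WT mice 0 of the 42 genes passed an adjusted p of 0.05 in edgeR's quasi-likelihood test, where 0.143% of all genes tested did, and in Tg mice 0 of 42 did, where 0% of all genes did. DESeq2 and limma-voom also called 0 in both. At an unadjusted p of 0.05, 0 collagens were higher and 6 lower with training in WT mice (all genes: 4.76% higher and 4.79% lower), and 0 were higher and 4 lower in Tg mice (all genes: 4.27% and 6.81%). Over both genotypes together, again 0 of 42 were called, against 0.457% of all genes, with 1 higher and 12 lower at an unadjusted p of 0.05 (all genes: 6.67% and 7.76%). limma-voom called 0 collagens there and DESeq2 called 1, Col8a2, among 366 genes called of the 17490 entered. The log2 fold change (log2FC) is trained over untrained in what follows.

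Among the fibrillar genes the log2FC with training was below 0 for 11 of 11 in WT mice and for 11 of 11 in Tg mice. The median was -0.43 in WT mice and -0.23 in Tg mice, against medians of 0.01 and 0.00 over all tested genes, and none of the 22 values passed the test. With 1 library left out, 8 to 11 of the 11 genes lay below 0 in WT mice and 9 to 11 in Tg mice. The genes that turned were Col3a1, Col27a1, Col5a1 and, without Tg untrained replicate 3, Col1a1 in Tg mice, whose log2FC was then 0.08. Col1a1 measured 152, 77.5, 186 and 86.9 CPM in the Tg trained, 87.2, 76.2, 82.1 and 163 in the WT trained, 124, 115, 232 and 116 in the Tg untrained, and 180.2, 107, 115 and 208 in the WT untrained libraries. In WT mice 3 of 4 trained libraries lay below every untrained one, while replicate 4 lay among them. Its log2FC was -0.58 (SE 0.33, 95% interval -1.27 to 0.12, adjusted p = 0.602) in WT mice and -0.23 (SE 0.33, 95% interval -0.92 to 0.47, adjusted p = 0.846) in Tg mice. Col1a2 measured 203, 111, 195 and 119 CPM in the Tg trained, 138, 104, 116 and 235 in the WT trained, 183, 178, 283 and 155 in the Tg untrained, and 246, 168, 169 and 279 in the WT untrained libraries. The trained and untrained groups overlapped in both genotypes, with a log2FC of -0.54 (SE 0.28, 95% interval -1.12 to 0.04, adjusted p = 0.557) in WT mice and -0.35 (SE 0.28, 95% interval -0.93 to 0.24, adjusted p = 0.691) in Tg mice. Col3a1 measured 212, 138, 170.02 and 144 CPM in the Tg trained, 189, 177, 186 and 321 in the WT trained, 196, 152, 194 and 144 in the Tg untrained, and 268, 167, 191 and 256 in the WT untrained libraries. The fitted difference with training was close to 0, with a log2FC of -0.02 (SE 0.20, 95% interval -0.44 to 0.41, adjusted p = 0.988) in WT mice and -0.05 (SE 0.20, 95% interval -0.47 to 0.38, adjusted p = 0.957) in Tg mice, and the intervals include changes of either sign. Col11a1, a minor fibrillar chain best known from cartilage, measured 6.68, 2.65, 5.92 and 2.97 CPM in the Tg trained, 1.77, 0.88, 0.917 and 4.1 in the WT trained, 5.92, 4.98, 11.1 and 4.3 in the Tg untrained, and 5.57, 2.97, 3.09 and 5.82 in the WT untrained libraries. The log2FC was -1.17 (SE 0.47, 95% interval -2.15 to -0.18, adjusted p = 0.458) in WT mice and -0.54 (SE 0.43, 95% interval -1.45 to 0.37, adjusted p = 0.693) in Tg mice, and WT trained replicate 4 again lay among the untrained libraries. Without that library, in 1 of 16 fits that each left out 1 library, Col11a1 was called over both genotypes, with a log2FC of -1.19 (adjusted p = 0.0447). All genes called rose from 80 to 389 in that fit. The library left out was the one whose value lay against the difference, so the call is no separate support. The same holds for each collagen called below without WT trained replicate 4 or WT untrained replicate 2. Beside these values, all 10 tested fibroblast markers had a log2FC below 0 over both genotypes, with a median of -0.43 and 0 called, and 8 of the 10 tested tendon markers did, with a median of -0.69 and 0 called. At an unadjusted p of 0.05, 8 of these fibroblast and 6 of these tendon markers were lower, where 7.76% of all genes were. All 8 adipocyte markers had a log2FC below 0 over both genotypes, with a median of -1.91 and 6 called, where 0.457% of all genes were called. The part of these cells in the fibrillar values was not tested.

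**Figure D4:**
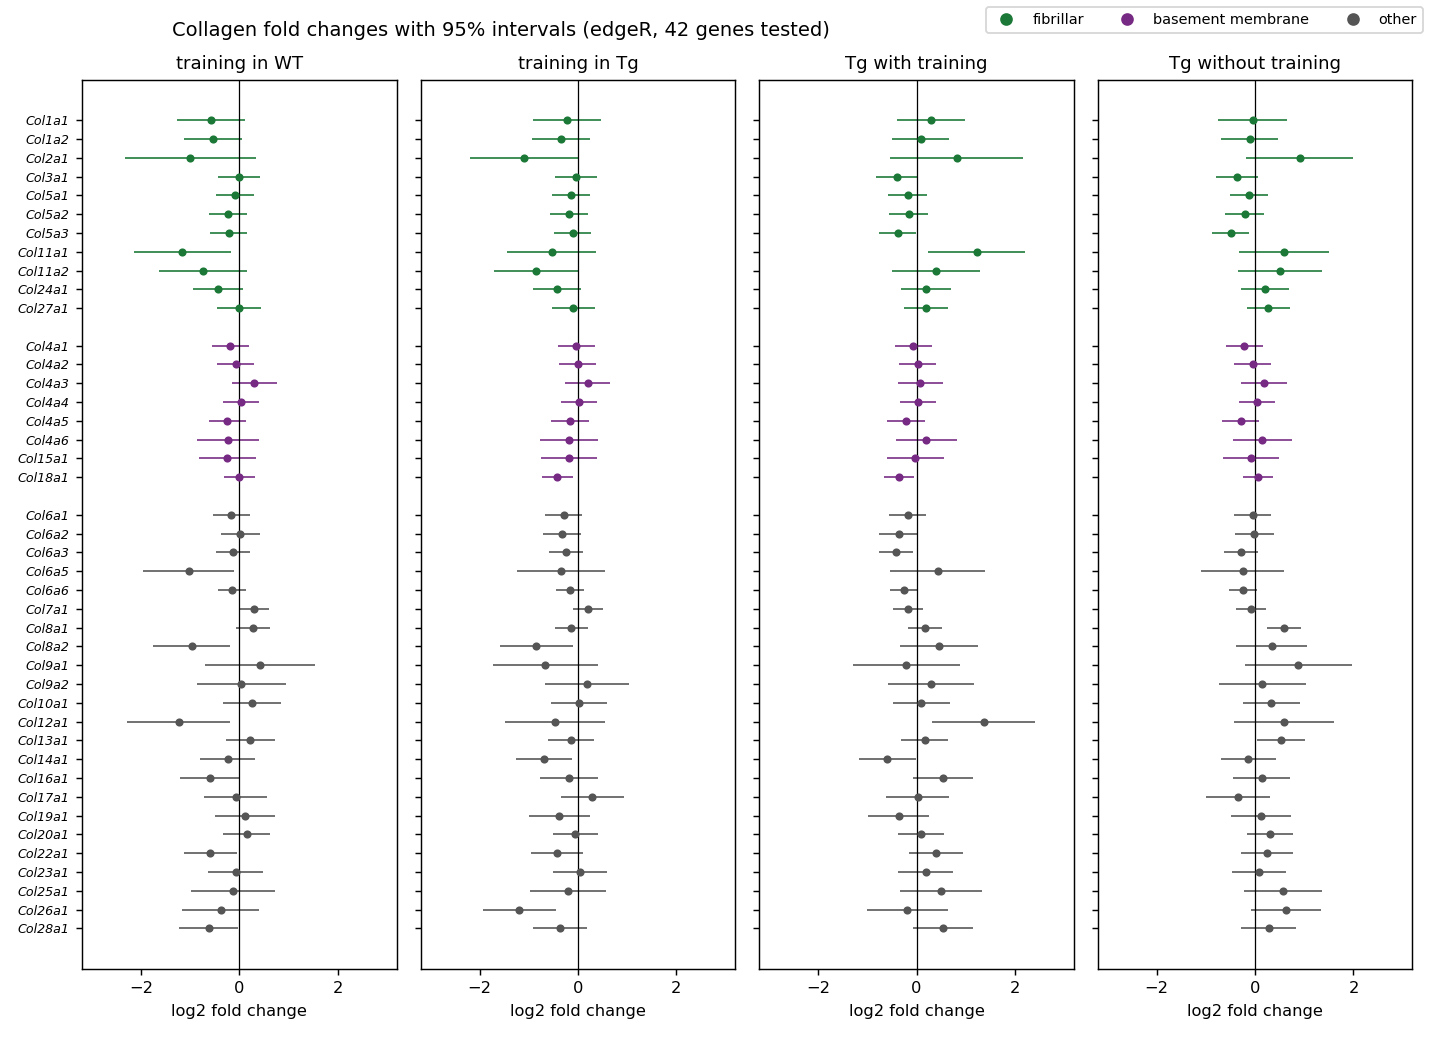
Log2 fold change of the 42 collagen genes tested, with 95% intervals, for training in WT and in Tg mice (trained over untrained) and for Tg over WT mice with and without training. Colours mark the class. The 11 fibrillar genes lie left of 0 in both training panels, and most intervals include 0.

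The basement membrane genes had medians nearer to 0 with training, at -0.13 in WT and -0.10 in Tg mice, with 6 of 8 genes below 0 in each and 0 called. Col4a1 measured 103, 90.7, 106 and 97.5 CPM in the Tg trained, 111, 90.3, 99 and 116 in the WT trained, 105, 112, 88.5 and 102 in the Tg untrained, and 125, 64.5, 145 and 139 in the WT untrained libraries. The 3 other WT untrained libraries lay above every library of the other groups, so the overlap of WT untrained with them rested on replicate 2, the lowest library of all. The log2FC was -0.18 (SE 0.18, 95% interval -0.56 to 0.19, adjusted p = 0.767) in WT and -0.03 (SE 0.18, 95% interval -0.41 to 0.34, adjusted p = 0.963) in Tg mice. Col4a2 measured 69.8, 66.5, 76.3 and 70.3 CPM in the Tg trained, 72.3, 64.6, 66.7 and 75.1 in the WT trained, 73.8, 71.6, 60.5 and 76.9 in the Tg untrained, and 77.5, 39, 92.4 and 84.1 in the WT untrained libraries. The same library was low, and the log2FC was -0.07 (SE 0.18, 95% interval -0.45 to 0.31, adjusted p = 0.918) in WT and -0.00 (SE 0.18, 95% interval -0.38 to 0.38, adjusted p = 1.0) in Tg mice. Col15a1, a basement membrane collagen of muscle and capillaries whose loss in mice gives a mild myopathy, measured 20.2, 20.5, 22.3 and 20.2 CPM in the Tg trained, 26.3, 19, 17 and 22.2 in the WT trained, 26.8, 23.7, 21.8 and 22.3 in the Tg untrained, and 30.6, 8.48, 30.2 and 31 in the WT untrained libraries. WT untrained replicate 2 was far below the 3 other libraries of its group, and the log2FC was -0.24 (SE 0.27, 95% interval -0.81 to 0.33, adjusted p = 0.803) in WT and -0.18 (SE 0.27, 95% interval -0.75 to 0.39, adjusted p = 0.848) in Tg mice. Without that library Col15a1 was called over both genotypes, with a log2FC of -0.36 (adjusted p = 0.0282), in a fit that called 218 genes against 80 with all libraries. Col18a1, the source of the endostatin fragment, measured 5.52, 5.25, 6.69 and 5.2 CPM in the Tg trained, 6.64, 5.93, 7.31 and 9.11 in the WT trained, 8.19, 7.0, 7.86 and 7.19 in the Tg untrained, and 7.43, 5.3, 7.36 and 9.0 in the WT untrained libraries. In Tg mice every trained library lay below every untrained one, with a log2FC of -0.42 (SE 0.15, 95% interval -0.73 to -0.10, adjusted p = 0.314), whereas the WT groups overlapped at -0.00 (SE 0.15, 95% interval -0.31 to 0.31, adjusted p = 0.998). The difference between the 2 responses was -0.41 (SE 0.21, 95% interval -0.86 to 0.03, adjusted p = 0.825) and did not pass the test. The endothelial markers summed to 171 to 275 CPM, with WT untrained replicate 2 the lowest. Their part in the type IV and type XV values was not tested.

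Among the other collagens the type VI chains, which encode the filaments mutated in human Ullrich and Bethlem myopathies, were abundant and showed small differences with training. Col6a1 measured 39.7, 32.5, 36.7 and 32.4 CPM in the Tg trained, 43.3, 27.3, 34.8 and 54.7 in the WT trained, 43.8, 43.8, 46.7 and 38.8 in the Tg untrained, and 49.2, 30.7, 46.1 and 53.4 in the WT untrained libraries. Col6a2 measured 32.7, 26.4, 30.5 and 29.3 CPM in the Tg trained, 39.3, 27.1, 35.9 and 50.4 in the WT trained, 41.7, 35.7, 37.8 and 33.7 in the Tg untrained, and 42.2, 22.8, 39.8 and 45.7 in the WT untrained libraries. In Tg mice Col6a2 was lower in every trained library than in every untrained one, at a log2FC of -0.32 (SE 0.19, 95% interval -0.72 to 0.07, adjusted p = 0.554), and Col6a1 overlapped at -0.29 (SE 0.18, 95% interval -0.67 to 0.09, adjusted p = 0.592). Col6a3 measured 67, 54.8, 58 and 56.3 CPM in the Tg trained, 73.3, 58.1, 75.4 and 108 in the WT trained, 80.8, 70.2, 68.6 and 61.1 in the Tg untrained, and 94.6, 62.4, 92.2 and 93.7 in the WT untrained libraries. Its training log2FC was -0.12 (SE 0.16, 95% interval -0.47 to 0.22, adjusted p = 0.842) in WT and -0.25 (SE 0.16, 95% interval -0.59 to 0.09, adjusted p = 0.617) in Tg mice, with overlapping groups in both. The smallest unadjusted p with training over both genotypes belonged to Col8a2, a short-chain collagen that forms hexagonal networks. It measured 2.81, 1.14, 2.4 and 1.05 CPM in the Tg trained, 1.17, 0.949, 0.812 and 2.35 in the WT trained, 2.81, 2.87, 5.27 and 2.25 in the Tg untrained, and 2.16, 3.06, 2.36 and 2.88 in the WT untrained libraries. In each genotype 1 or more trained libraries lay among the untrained ones, and over both genotypes the log2FC was -0.91 (SE 0.25, 95% interval -1.45 to -0.37, adjusted p = 0.126). DESeq2 called it (adjusted p = 0.0298), as did edgeR without WT trained replicate 4, at a log2FC of -1.12 (adjusted p = 0.0263).

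Col26a1, first described in testis and ovary, was present at a low level: 0.193, 0.158, 0.197 and 0.136 CPM in the Tg trained, 0.242, 0.116, 0.131 and 0.271 in the WT trained, 0.401, 0.307, 0.545 and 0.311 in the Tg untrained, and 0.22, 0.142, 0.212 and 0.443 in the WT untrained libraries. All Tg trained libraries lay below all Tg untrained ones, with a log2FC of -1.19 (SE 0.35, 95% interval -1.94 to -0.44, adjusted p = 0.238). Col14a1, a fibril-associated collagen of connective tissue sheaths, measured 5.56, 4.84, 7.65 and 5.11 CPM in the Tg trained, 7.87, 5.12, 6.86 and 14.9 in the WT trained, 8.29, 11.7, 8.55 and 8.87 in the Tg untrained, and 8.91, 14.4, 8.53 and 9.18 in the WT untrained libraries. Again the Tg trained libraries lay below all Tg untrained ones, with a log2FC of -0.69 (SE 0.27, 95% interval -1.26 to -0.13, adjusted p = 0.359), and in WT mice replicate 4 of the trained group was the highest of all 16 libraries. Without it Col14a1 was called over both genotypes, at -0.66 (adjusted p = 0.0271). Col12a1 measured 60.3, 20.7, 42.5 and 21.2 CPM in the Tg trained, 11.1, 9.22, 5.34 and 30.3 in the WT trained, 50.8, 24.9, 91.7 and 31.5 in the Tg untrained, and 41, 31.1, 25 and 34.7 in the WT untrained libraries. In WT mice 3 of 4 trained libraries lay far below the untrained ones and replicate 4 lay among them, which gave a log2FC of -1.23 (SE 0.49, 95% interval -2.28 to -0.18, adjusted p = 0.458). Col22a1, a collagen of the myotendinous junction, measured 10.4, 9.47, 11.5 and 8.87 CPM in the Tg trained, 7.37, 7.55, 5.21 and 10.3 in the WT trained, 11.3, 12.7, 20.1 and 10.02 in the Tg untrained, and 13.3, 6.26, 11.6 and 14.8 in the WT untrained libraries. Its log2FC over both genotypes was -0.51 (SE 0.18, 95% interval -0.89 to -0.13, adjusted p = 0.216), and the groups overlapped in each genotype. Counted over all 42 genes, no collagen was higher in every trained than in every untrained library. In WT mice 1 gene was lower in all (Col6a5, a rare type VI chain under 1 CPM), where 2.03% of all genes were lower and 2.36% higher in this way. In Tg mice 4 were lower in all (Col18a1, Col26a1, Col6a2 and Col14a1), where 4.53% of all genes were lower and 4.65% higher. The training responses of Tg and WT mice were also compared directly. The difference had 0 of 42 collagens called, against 0.0515% of all genes, and 0 at an unadjusted p of 0.05 in either direction, where 2.43% of all genes were higher and 3.6% lower. DESeq2 and limma-voom called 0 as well.

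Between Tg and WT mice without training, 0 of 42 collagens were called, where 0.743% of all genes were, with 2 higher and 1 lower at an unadjusted p of 0.05 (all genes: 8.17% and 7.98%). With training 0 of 42 were called, where 0.0114% of all genes were, with 2 higher and 4 lower (all genes: 3.24% and 4.73%). DESeq2 called 1 collagen without training, among 442 genes called of the 17490 entered, and 0 with training, where it called 55 genes. limma-voom called 0 collagens in both. The log2FC is Tg over WT here. The median of the fibrillar genes was -0.05 without training and 0.19 with training. For the basement membrane genes it was 0.00 in both, and for the other types 0.15 and 0.10. Leaving out the 4 libraries above 10 CPM of Myh7 gave medians without training of -0.35 for the fibrillar, -0.25 for the basement membrane and -0.05 for the other types. These medians rest on Tg untrained replicates 1 and 4 alone. The libraries left out include Tg untrained replicate 3, the highest of its group in the fibrillar sum, and WT untrained replicate 2, the lowest of its group there. Col8a1, the partner chain of Col8a2, made by endothelial and smooth muscle cells, measured 5.07, 4.3, 5.43 and 4.93 CPM in the Tg trained, 4.41, 4.1, 3.12 and 5.76 in the WT trained, 5.06, 5.16, 7.05 and 4.41 in the Tg untrained, and 3.44, 3.38, 3.8 and 3.79 in the WT untrained libraries. Without training every Tg library lay above every WT one, with a log2FC of 0.59 (SE 0.16, 95% interval 0.25 to 0.93, adjusted p = 0.097), and DESeq2 called it (adjusted p = 0.0309). It was the only collagen higher in all Tg untrained libraries, and none was lower in all, where 4.33% of all genes were higher and 4.16% lower. With training the groups overlapped at 0.18 (SE 0.16, 95% interval -0.16 to 0.51, adjusted p = 0.864), and the difference between the training responses was -0.42 (SE 0.23, 95% interval -0.90 to 0.06, adjusted p = 0.84), which did not pass the test. Col5a3, the third chain of type V collagen, measured 14.1, 11.1, 15.1 and 13.7 CPM in the Tg trained, 18.8, 16.3, 15.2 and 19.9 in the WT trained, 15.2, 14.4, 15.4 and 13.1 in the Tg untrained, and 24.9, 11.4, 21.6 and 23.8 in the WT untrained libraries. With training every Tg library lay below every WT one, at a log2FC of -0.38 (SE 0.18, 95% interval -0.76 to -0.00, adjusted p = 0.622), the only collagen of the 42 for which this held, and none was higher in all, where 2.76% of all genes were lower and 2.94% higher. Without training WT replicate 2 was the lowest library and the 3 other WT libraries lay above all Tg libraries, which gave -0.49 (SE 0.18, 95% interval -0.87 to -0.12, adjusted p = 0.197). Averaged over training states the log2FC was -0.44 (SE 0.13, 95% interval -0.70 to -0.17, adjusted p = 0.0935). Without WT untrained replicate 2 the log2FC was -0.69 without training (adjusted p = 0.00504). Over both training states it was then -0.54 (adjusted p = 0.00223), in a fit that called 351 genes there against 196 with all libraries. DESeq2 on all libraries called Col5a3 over both training states (adjusted p = 0.0343). Over both training states, 0 of 42 collagens were called by edgeR, where 1.12% of all genes were, with 4 higher and 4 lower at an unadjusted p of 0.05 (all genes: 8.28% and 8.89%). DESeq2 called Col5a3 and Col8a1 among 644 genes called of the 17490 entered, and limma-voom called 0 collagens.

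Further differences in Tg mice did not pass the adjusted threshold, although some of their 95% intervals leave out 0. Col4a1 gave -0.22 (SE 0.18, 95% interval -0.59 to 0.16, adjusted p = 0.595) without training and Col6a3 -0.35 (SE 0.11, 95% interval -0.60 to -0.11, adjusted p = 0.131) over both training states. Without WT untrained replicate 2, the library low in basement membrane transcripts, Col4a1 was called without training, at -0.42 (adjusted p = 0.0476), and Col6a3 over both training states, at -0.42 (adjusted p = 0.0448). Col13a1, a transmembrane collagen of the neuromuscular junction, measured 0.88, 0.754, 0.925 and 0.757 CPM in the Tg trained, 0.911, 0.672, 0.602 and 0.749 in the WT trained, 0.642, 0.737, 1.34 and 0.915 in the Tg untrained, and 0.459, 0.675, 0.825 and 0.584 in the WT untrained libraries. Its log2FC without training was 0.53 (SE 0.23, 95% interval 0.04 to 1.01, adjusted p = 0.277), with overlapping groups. Col12a1 had the smallest unadjusted p in trained mice, with a log2FC of 1.36 (SE 0.49, 95% interval 0.31 to 2.41, adjusted p = 0.484), and Col11a1 followed at 1.22 (SE 0.47, 95% interval 0.24 to 2.21, adjusted p = 0.511). In both genes WT trained replicate 4 lay inside the range of the Tg trained libraries. In trained mice, Tg over WT, 9 of the 10 tested tendon markers had a log2FC above 0, with a median of 0.59, 0 at an unadjusted p of 0.05 and 0 called. All 10 fibroblast markers were below 0, with a median of -0.41, 5 of them at an unadjusted p of 0.05 and 0 called. All 8 macrophage markers were below 0, with a median of -1.03, 6 of them at an unadjusted p of 0.05 and 0 called. All 8 adipocyte markers were also below 0, with a median of -0.60, 1 of them at an unadjusted p of 0.05 and 0 called. At an unadjusted p of 0.05, 4.73% of all genes were lower. The part of these cells in the collagen values was not tested.

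Some pairs of collagens kept a steady ratio over the libraries, but most did not. Over the 16 libraries Col4a1 and Col4a2, whose start regions are printed above, had the steadiest ratio of the 91 pairs among the 14 genes of at least 10 CPM, with an SD of 0.101 on log2. Col6a1 with Col6a2 came next at 0.121, Col5a1 with Col5a2 at 0.126, and the type I chains Col1a1 and Col1a2 ranked 5 at 0.146. The middle pair of the 91 had an SD of 0.339. These ratios are descriptions, chosen after the values were seen, and carry no test. The ratio of Col4a1 to Col4a2 per kilobase was 1.44, 1.33, 1.36 and 1.35 in the Tg trained, 1.5, 1.36, 1.45 and 1.51 in the WT trained, 1.38, 1.52, 1.43 and 1.3 in the Tg untrained, and 1.57, 1.61, 1.53 and 1.61 in the WT untrained libraries. It was higher in all WT untrained libraries than in any of the other 12. The margin was narrow, with 1.5284 in WT untrained replicate 3 and 1.5245 in Tg untrained replicate 2. Col1a1 over Col1a2 spanned 0.57 to 0.858 over the 16 libraries.

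For several pairs the ratio of 2 collagens separated trained Tg from trained WT libraries. The ratio of Col1a1 to Col3a1 per kilobase was 0.67, 0.527, 1.02 and 0.566 in the Tg trained, 0.432, 0.403, 0.414 and 0.476 in the WT trained, 0.594, 0.711, 1.12 and 0.756 in the Tg untrained, and 0.631, 0.597, 0.562 and 0.76 in the WT untrained libraries. Every WT trained library lay below every other library, replicate 4 included. The ratio of Col12a1 to Col14a1 was 5.35, 2.11, 2.74 and 2.05 in the Tg trained, 0.697, 0.888, 0.384 and 1.0 in the WT trained, 3.02, 1.05, 5.29 and 1.75 in the Tg untrained, and 2.27, 1.06, 1.44 and 1.87 in the WT untrained libraries. Here too all WT trained libraries lay below the 12 others, though Tg untrained replicate 2 and WT untrained replicate 2 were close to them. Col14a1 averaged 8.53 CPM, so this pair is not among the 91 pairs of genes of at least 10 CPM. Of the 91 pairs, 22 (24.2%) had ratios that did not overlap between Tg trained and WT trained libraries. With training in WT mice the number was 10 (11%), with training in Tg mice 2 (2.2%), and between Tg and WT without training 7 (7.69%). Among all pairs of tested genes of at least 10 CPM, the shares were 8.94% between Tg trained and WT trained libraries, 5.12% with training in WT mice, 13.2% with training in Tg mice and 9.09% between Tg and WT without training. Pairs share genes and are not independent. In trained mice, Col12a1 was higher in Tg relative to its partner in 9 of the 22 pairs and Col22a1 in 6, while Col3a1 and Col5a3 were each lower in 5. Without training Col5a3 was the lower member in 4 of the 7 pairs.

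**Figure D5:**
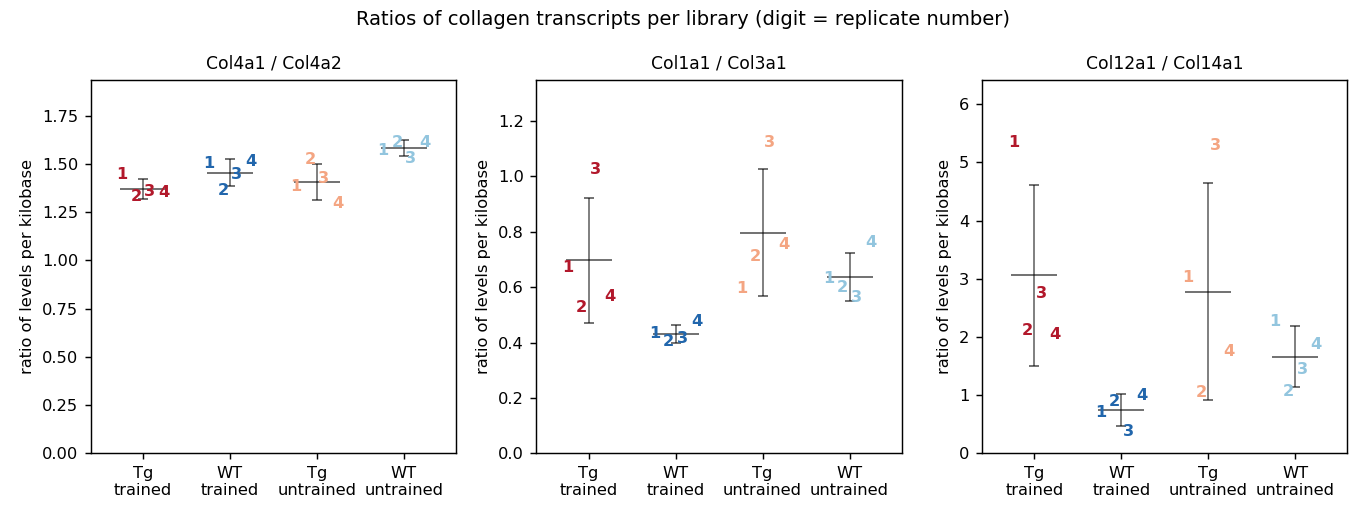
Ratio of levels per kilobase of Col4a1 to Col4a2, Col1a1 to Col3a1 and Col12a1 to Col14a1 in each library of the 4 groups. Each digit is the replicate number, and the bars are mean and SD of 4 libraries. The WT trained libraries lie below all others for Col1a1 over Col3a1 and for Col12a1 over Col14a1.

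Genes that build, bind or regulate collagen were followed as 6 lists. Over both genotypes 0 members of any list passed the test with training, and most had a log2FC below 0. Among the enzymes and chaperones of collagen synthesis and folding, 17 of 21 tested members were below 0, with a median of -0.14. P3h2, a prolyl 3-hydroxylase acting on type IV collagen, gave -0.56 (SE 0.18, adjusted p = 0.172). All 13 genes of processing and cross-linking were below 0, with a median of -0.30, and Loxl1, a lysyl oxidase that cross-links elastin and collagen, gave -0.47 (SE 0.13, adjusted p = 0.126). Of the 9 tested fibril-associated proteoglycans 8 were below 0, with a median of -0.49. Dcn, or decorin, a proteoglycan that coats type I fibrils, measured 129.7, 106, 123 and 102 CPM in the Tg trained, 132, 86.8, 73.2 and 168 in the WT trained, 152, 196, 200.4 and 142 in the Tg untrained, and 181, 226, 182 and 173 in the WT untrained libraries. In both genotypes the highest trained library lay below the lowest untrained one, and the log2FC over both genotypes was -0.66 (SE 0.14, adjusted p = 0.0574). DESeq2 called it (adjusted p = 0.00221). Of the 15 tested basement membrane partners 13 were below 0, with a median of -0.07, and of the 9 tested collagen receptors 8, with a median of -0.21. Ddr2, a receptor tyrosine kinase that binds fibrillar collagen, gave -0.31 (SE 0.08, adjusted p = 0.112) and was called by DESeq2 (adjusted p = 0.0371). In the TGF-beta list 13 of 14 were below 0, with a median of -0.13. At an unadjusted p of 0.05, 0 members of the 6 lists were higher with training, and 7, 8, 7, 4, 3 and 4 were lower, in the order given, where 6.67% of all genes were higher and 7.76% lower.

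Between genotypes 1 member of these lists passed the test, over both training states, where 1.12% of all genes did. The 6 lists held 21, 13, 9, 15, 9 and 14 tested genes. Pxdn, or peroxidasin, the enzyme that forms the sulfilimine cross-links of type IV collagen, measured 15.4, 17.9, 21.5 and 19 CPM in the Tg trained, 16.3, 15.8, 12.7 and 13.7 in the WT trained, 19.5, 20.5, 15.5 and 19.8 in the Tg untrained, and 15.7, 12.6, 15.9 and 13.9 in the WT untrained libraries. It rose over both training states, with a log2FC of 0.35 (SE 0.08, adjusted p = 0.0497), although single libraries of the genotypes overlapped. The call was lost in 14 of the 24 alternatives, including 11 of the 16 that left out 1 library, with adjusted p between 0.00541 and 0.103. The remaining lists had 0 members called between genotypes over both training states. Smad3, a transducer of TGF-beta signals, gave -0.62 (SE 0.17, adjusted p = 0.0811), with 166 CPM in WT untrained replicate 2. Without that library it was called, at a log2FC of -0.42 (adjusted p = 0.0462), and DESeq2 called it on all libraries (adjusted p = 0.0155). Colgalt2, a collagen galactosyltransferase, gave 0.40 (SE 0.10, adjusted p = 0.0682). Of the 8 smooth muscle and pericyte markers 7 were above 0 over both training states, and 3 were called (Cspg4, Pdgfrb and Notch3), where 1.12% of all genes were. All 8 endothelial markers were above 0, with a median of 0.20, 7 of them at an unadjusted p of 0.05, where 8.28% of all genes were higher, and 0 called. Without training all 8 endothelial markers were above 0 as well, with a median of 0.25 and 4 at an unadjusted p of 0.05, where 8.17% of all genes were higher. In that comparison WT untrained replicate 2 had an endothelial sum of 171 CPM, against 214 to 232 CPM in the rest of its group. The part of both cell types in the Col8a1 and Pxdn values was not tested.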

How the data were processed

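Per the labels' protocols, tissue RNA was isolated on columns and sequenced from SMARTer mRNA-seq libraries. STAR 2.7.8a, RSEM 1.3.2 and the mm10 build are named in the submitters' processing notes. The annotation release and strand are not given in the sources used here. The authors deposited RSEM expected counts for 55487 genes in 16 libraries, not normalized, of which 12.5% of values were not whole. The expected counts were rounded. filterByExpr by group left 17490 genes, and all 16 libraries entered 1 edgeR 4.0.16 quasi-likelihood model (R 4.3.3) with TMM scaling, a mean per group and 7 contrasts. Calls needed an adjusted p (Benjamini-Hochberg over all genes tested) under 0.05. The biological coefficient of variation was 14.1%. Counts simulated for training in WT left 17282 genes to test. The fit recovered 91 of the 100 with a 2-fold change and 99 of the 100 with a 4-fold change, and called 12 unchanged ones. The changed genes were drawn at random from all tested genes above a floor on mean count. Collagens vary more within groups than most genes, so these shares do not give the recovery of a collagen change. No 2 libraries of a group agreed within sampling noise, with a chi-square of at least 6.62 per degree of freedom.

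Exon length is that of the longest principal transcript in GENCODE for GRCm38. Values in every library are given for 19 collagens: those called (0), the 3 with the highest level per kilobase in each class, and the 3 with the smallest p in each contrast. Other genes shown were chosen after their values were seen. From each companion list, up to 4 called members, or up to 2 with the smallest p, could be named. The collagen members, the 6 companion lists, the 9 marker lists and the alternatives were chosen with earlier results of these data known. Ctgf, from the TGF-beta list, was not analysed here. The values of a further gene of that list are not reported here. Alternatives were other scaling, other filters, DESeq2 1.42.0, limma-voom (limma 3.58.1), a replicate block, the 8 libraries of a comparison, leaving out each library, and leaving out 4 libraries above 10 CPM of Myh7. DESeq2 kept its default filtering, which can leave genes of low counts out of the adjustment. Its calls may thus be adjusted over fewer than the 17490 genes entered.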

Additional observations from a re-analysis of the deposited data

Results flagged for a closer look

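In 9 of the 100 groups of 4 libraries looked at, over the collagens named and their class sums and ratios, 1 library stood apart by Dixon's criterion at the 95% level. Chance gives about 1 in 20. WT trained replicate 4 measured 320.8 CPM of Col3a1, against 177 to 189 CPM in the other libraries of its group, and 163 CPM of Col1a1, against 76.2 to 87.2 CPM. Its ratio of fibrillar to basement membrane sums was 4.03, against 2.47 to 2.59. Tg untrained replicate 3 measured 232 CPM of Col1a1, against 115 to 124 CPM in its group. These are the libraries with the highest tendon, Schwann cell and fibroblast marker sums of their groups. WT trained replicate 4 also had the highest macrophage marker sum of its group.

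WT untrained replicate 2 measured 8.48 CPM of Col15a1, against 30.2 to 31.0 CPM in the other libraries of its group, and 62.4 CPM of Col6a3, against 92.2 to 94.6 CPM. For Col14a1 it was high instead, at 14.4 CPM against 8.53 to 9.18 CPM. Tg untrained replicate 2 was also high for Col14a1, at 11.7 CPM against 8.29 to 8.87 CPM. Both libraries are among the 4 with more than 10 CPM of Myh7. In Tg trained replicate 3 Col15a1 was 22.3 CPM, against 20.2 to 20.5 CPM in its group, a difference that is small beside the spread of Col15a1 in the other groups. The causes of these differences were not tested.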

How the results depend on the processing

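DESeq2 called more genes than edgeR: 68 with training in WT, 132 with training in Tg, 442 in Tg without training, 55 in Tg with training, 37 for the difference, 366 for training over both genotypes and 644 for Tg over both training states. Among them were 1 collagen in Tg without training, 1 with training over both genotypes and 2 in Tg over both training states. With only the 8 libraries compared, 10, 123, 40 and 5 genes were called in the first 4 comparisons. With no filter on low counts 5 genes were called with training in Tg, 1 in Tg with training and 15 for the difference, and with a filter of 1 CPM in 4 libraries 1 in Tg with training. Leaving out the 4 libraries above 10 CPM of Myh7 gave 9 genes with training in Tg, 32 in Tg without training, 4 for the difference and 41 with training over both genotypes. It also gave 1 collagen in Tg without training (Col5a3), 1 with training over both genotypes (Col24a1) and 2 in Tg over both training states (Col5a3 and Col6a6), and medians in Tg without training of -0.35 for fibrillar and -0.25 for basement membrane genes. In this setting the Tg untrained group holds replicates 1 and 4 alone. WT untrained replicate 2, also left out, lay against the difference for Col5a3, Col24a1 and Col6a6, so these calls are no separate support. Deviations of same-numbered libraries correlated at -0.153 to 0.176. Libraries of different numbers were not compared in this way, so whether replicate numbers pair the libraries is not settled. With the replicate number as a block, 66 genes were called in Tg without training, 1 in Tg with training and 16 with training over both genotypes, and 0 collagens in each of the 7 comparisons. Leaving out 1 library gave 16 to 30 genes with training in WT, 0 to 93 with training in Tg, 43 to 138 in Tg without training, 1 to 16 in Tg with training, 6 to 12 for the difference, 15 to 389 with training over both genotypes and 29 to 374 in Tg over both training states. The collagens called were then 0 to 2 in Tg without training, 0 to 3 with training over both genotypes, 0 to 2 in Tg over both training states, and 0 in the 4 other comparisons. No collagen fold change with a p among the 3 smallest of its comparison turned its sign under any alternative run, nor did the fibrillar medians for training in WT or in Tg. The class medians between genotypes and for the difference of training responses lay near 0, and several of them turned their sign, as did the median of the other types for training in WT without WT trained replicate 3 or WT untrained replicate 4. With 4 libraries a group and the spread of collagens within groups, small log2 differences could not be detected, and larger ones could be missed. The printed intervals are not adjusted for the number of genes and give no limit of detection. Col12a1, at -1.23 with training in WT mice, was not called although its interval leaves out 0. The cause of the changes between settings was not tested.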

Other observations

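The minor collagens of muscle were measured as well. The type IV chains outside the common pair were low: Col4a3 and Col4a4, which form the network of the kidney glomerulus, averaged 0.352 and 0.297 CPM per kilobase over the 16 libraries, Col4a5 0.277 and Col4a6 0.0404, against 16 for Col4a1. Col7a1, the anchoring fibril collagen of skin, averaged 6.29 ± 0.29 CPM in the Tg trained, 7.1 ± 1.47 in the WT trained, 5.46 ± 1.02 in the Tg untrained and 5.76 ± 0.823 in the WT untrained libraries (SD, n = 4 each). It was the 1 collagen higher with training over both genotypes at an unadjusted p of 0.05, with a log2FC of 0.25 (SE 0.10, 95% interval 0.04 to 0.47, adjusted p = 0.275), which did not pass the edgeR test. Summed skin keratin and desmosome markers were below 2 CPM in every library, and their part in the Col7a1 values was not tested. Col24a1, a fibrillar collagen of bone and cornea, averaged 4.87 ± 0.295 CPM in the Tg trained, 4.24 ± 0.657 in the WT trained, 6.55 ± 1.15 in the Tg untrained and 5.74 ± 2.23 in the WT untrained libraries (SD, n = 4 each), with a training log2FC of -0.43 (SE 0.17, 95% interval -0.78 to -0.07, adjusted p = 0.261) over both genotypes. Without WT untrained replicate 2, which measured 2.51 CPM against 6.0 to 7.27 CPM in the 3 other libraries of its group, edgeR called it at -0.56 (adjusted p = 0.0127). Col9a1, a fibril-associated collagen of cartilage, measured 0.0533 CPM in WT untrained replicate 2 and 3.67 CPM in Tg untrained replicate 3, the lowest and highest of the 16 libraries. Col7a1, Col24a1 and Col9a1 are shown here after their values were seen.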
